A study of Mus musculus with 24 samples.

Results

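Corticosterone was given on top of TCA to C127l cells that carried the wild-type glucocorticoid receptor, and 3 such libraries were compared with 3 libraries of the same cells given TCA only. These 6 samples were chosen by their labels, of 24 in the series. Of 25124 genes in their table, the 12774 with a mean normalised read count of at least 10 over the 6 libraries were tested, and 53 of them were called (0.415%), 35 higher (0.274%) and 18 lower (0.141%).

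Per the labels, the cells are C127l, a mouse line of adenocarcinoma cells that is known as a mammary line. The genotype GRKO-mGRwt means that the cells' own receptor was knocked out and that GFP-mGRwt, a GFP-tagged wild-type mouse receptor (here wt), was put in its place. The commands in the file header call the libraries Halo where the labels and column names say GFP, so the tag rests on the labels. All cells were kept for 24 h in charcoal-stripped serum, which is low in steroids. The TCA group was treated with 100 µM TCA for 2 h, and the TCA plus Cort group with 100 µM TCA and 100 nM corticosterone for 2 h. The labels leave the abbreviation TCA unexplained; among bile acids it commonly stands for taurocholic acid. Every group here carried the knockout and a tagged receptor, and no group lacked a receptor, so whether a change needs the receptor was not tested. The labels do not say whether replicates were separate cultures, whether the line is 1 clone, or what drives the receptor, so p-values measure only the spread between these libraries.

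Used beside them were vehicle and 100 nM corticosterone for 2 h in the same line (3 libraries each), and TCA and TCA plus Cort in the line GRKO GFP-mGRtetra (here tetra, 3 libraries each). The labels do not describe the tetra form further. Between wt and tetra, the form of the receptor cannot be told apart from the line, and where TCA is contrasted with no TCA, the treatment cannot be told apart from any batch those libraries have in common.

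Corticosterone is the main glucocorticoid of the mouse. Its receptor, encoded by Nr3c1, waits in the cytoplasm with chaperones such as HSP90, moves to the nucleus once the hormone binds, and attaches to DNA as dimers at palindromic elements or works through other factors. Its classic targets include feedback genes that restrain the receptor or inflammatory signalling (Fkbp5, Tsc22d3, Dusp1, Zfp36l2), the clock gene Per1, the kinase gene Sgk1 and the transcription factor gene Klf9. Bile acids such as taurocholic acid are cholesterol derivatives that act on receptors of their own, among them Nr1h4 and Gpbar1.

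Recovered exon reads ranged from 22.5 M to 30.1 M over the 6 libraries, with 15927 to 16318 genes detected. One library stood apart. TCA library 3 correlated with TCA libraries 1 and 2 at Pearson r = 0.9967 and 0.9962 across genes, and with the TCA plus Cort libraries at 0.9974 to 0.9978. On the first principal component (50.4% of the variance) TCA libraries 1 and 2 lay at -5.81 and -7.19, TCA library 3 at 2.36, and the TCA plus Cort libraries at 4.45, 5.22 and 0.961. The share of exon reads on Rn45s, the 45S ribosomal precursor left after ribosomal RNA removal, was 23.9% and 21.3% in TCA libraries 1 and 2, 27.9% in TCA library 3 and 27.7%, 28.6% and 25.6% in the TCA plus Cort libraries. Per1 and Ccn2 in TCA library 3 (439 and 98.4 normalised reads) were nonetheless at the level of the other TCA libraries. When TCA library 3 was left out, 2570 genes were called (1169 higher and 1401 lower), and all of the 53 genes were among them. With the Rn45s share as a covariate, an alternative chosen after seeing the data, the count was 388 (159 higher and 229 lower), again with all of the 53. Leaving out any other library left 6 to 13 called genes.

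**Figure D1:**
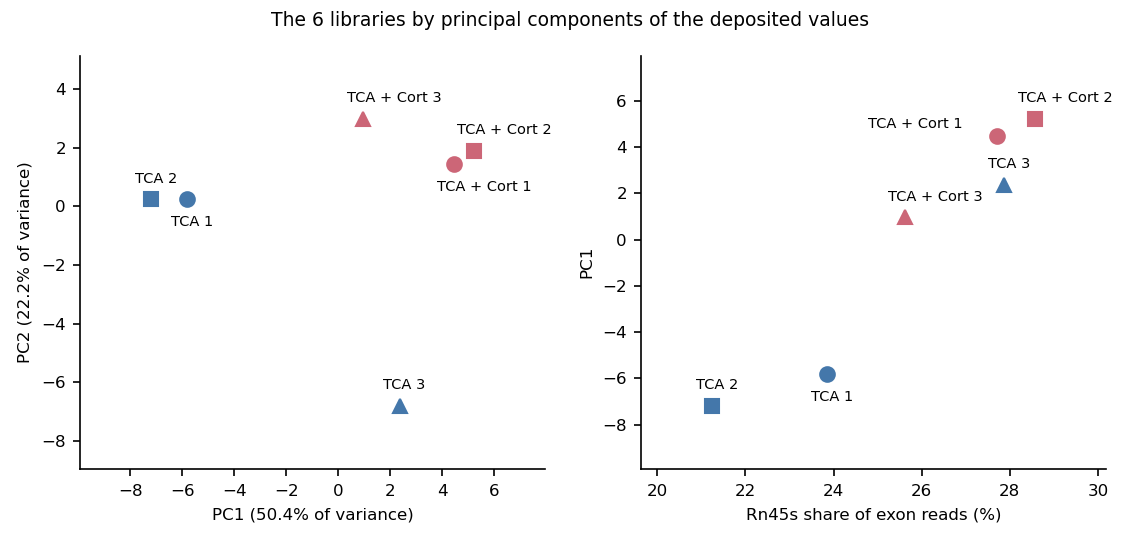
Principal components of the deposited values in the 6 libraries (left), and the first component against the Rn45s share of exon reads in percent (right). Blue is TCA, red is TCA plus Cort, and circle, square and triangle are replicates 1, 2 and 3. TCA library 3 lies at 2.36 on the first component, among the TCA plus Cort libraries, and apart from all others on the second.

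The labelled line was checked against marker genes. Of 20 epithelial markers 5 had a mean of at least 10: Tjp1 (4993), Jup (656), Krt14 (185), Grhl2 (37.2) and Esrp2 (14.3). Epcam, Cdh1, Krt18, Cldn1 and Cldn3 were at 0 in all 6 libraries. Of 20 mesenchymal markers 17 had a mean of at least 10, with Vim at 65459 normalised reads on average. Of 18 immune markers 4 did, and among those at 0 were Cd3e, Adgre1, Mrc1, Kit, Cpa3 and Mcpt4. Of 12 milk protein and mammary markers 4 had a mean of at least 10. They were the transcription factor gene Gata3 (862), Csn3 (492), Csn1s1 (64.3) and Esr1 (44.1), while Lalba and Pgr were at 0. No gene of the epithelial, mammary, mesenchymal, immune or endothelial list was called. The summed epithelial markers were 5994 to 6237 with TCA and 5661 to 5726 with TCA plus Cort, the mesenchymal 199980 to 209624 and 195438 to 196915, and the immune 308 to 323 and 288 to 356. The part of these sums in the results was not tested.

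Nr3c1, the gene that was replaced, held 4376, 4237 and 4282 normalised reads with TCA and 4293, 4252 and 4373 with TCA plus Cort. The groups overlapped and the gene was not called (adjusted p = 0.984, limma with Benjamini-Hochberg adjustment over all tested genes, as for every adjusted p here). Reads of the inserted receptor and of the knocked-out gene fall in the same sum, so this level is a check of neither.

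Known targets of the receptor led the rises. Per1 (chromosome 11, 69098949 to 69109957, mm10) stood at 388, 386 and 439 normalised reads in TCA libraries 1 to 3 and at 2398, 2337 and 2162 in TCA plus Cort libraries 1 to 3. All 3 treated libraries lay far above all 3 controls. Its mean rose from 404.5 ± 30.0 to 2299 ± 123 (SD, n = 3 per group, as for every mean here), 5.68-fold (1.68 ± 0.04, SE, on the deposited log2-like scale, adjusted p = 9.89e-11). That scale compresses differences at low counts, so folds here are ratios of mean normalised counts. In these bulk samples, fewer responding cells and less RNA per cell cannot be told apart.

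Tsc22d3 (chromosome X, 140539529 to 140548571), the gene of the anti-inflammatory protein GILZ, stood at 730, 711 and 646 with TCA and at 1439, 1516 and 1458 with TCA plus Cort. The groups were well apart, a 2.11-fold rise (0.74 ± 0.04, adjusted p = 4.32e-07). Klf9 (chromosome 19, 23141226 to 23168128), a Krüppel-like transcription factor gene, went from 719.8, 739.5 and 715 to 978, 1102 and 1008. That is a 1.42-fold rise (0.33 ± 0.04, adjusted p = 0.00434), and again no control reached a treated library.

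Sgk1 (chromosome 10, 21994666 to 21999902), whose kinase acts in cell survival and ion transport, stood at 2559, 2102 and 2746 with TCA and at 3907, 3904 and 3469 with TCA plus Cort. It rose 1.52-fold (0.52 ± 0.07, adjusted p = 0.00558), with the groups apart but TCA library 3 the highest of the controls and TCA plus Cort library 3 the lowest of the treated. Its call was lost without TCA plus Cort library 1 (adjusted p = 0.0784) or library 2 (adjusted p = 0.103). Zfp36l2, whose protein promotes decay of AU-rich messenger RNAs, went from 3583, 3173 and 4024 to 5467, 5939 and 4725. It rose 1.496-fold (adjusted p = 0.0121), and the call was lost without TCA library 1 (adjusted p = 0.0682) or TCA plus Cort library 1 (adjusted p = 0.121) or 2 (adjusted p = 0.171).

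Ccn2 (chromosome 10, 24595442 to 24598682), which encodes the matrix-associated growth factor CTGF, showed the largest fold of the called genes whose mean reached 50. It stood at 97.0, 95.5 and 98.4 with TCA and at 798, 867 and 688 with TCA plus Cort. The 3 controls were nearly equal and the treated libraries all far above them, an 8.09-fold rise (1.34 ± 0.05, adjusted p = 4.5e-09). Tsku (chromosome 7, 98350668 to 98361288), which encodes the secreted leucine-rich protein tsukushi, went from 1246, 1284 and 1339 to 2117, 2098 and 2142. It rose 1.64-fold (0.55 ± 0.04, adjusted p = 3.83e-06), with little spread in either group. Per1, Ccn2, Tsc22d3, Tsku and Klf9 were the 5 genes that were called in each of the 6 leave-outs and in each alternative fit.

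**Figure D2:**
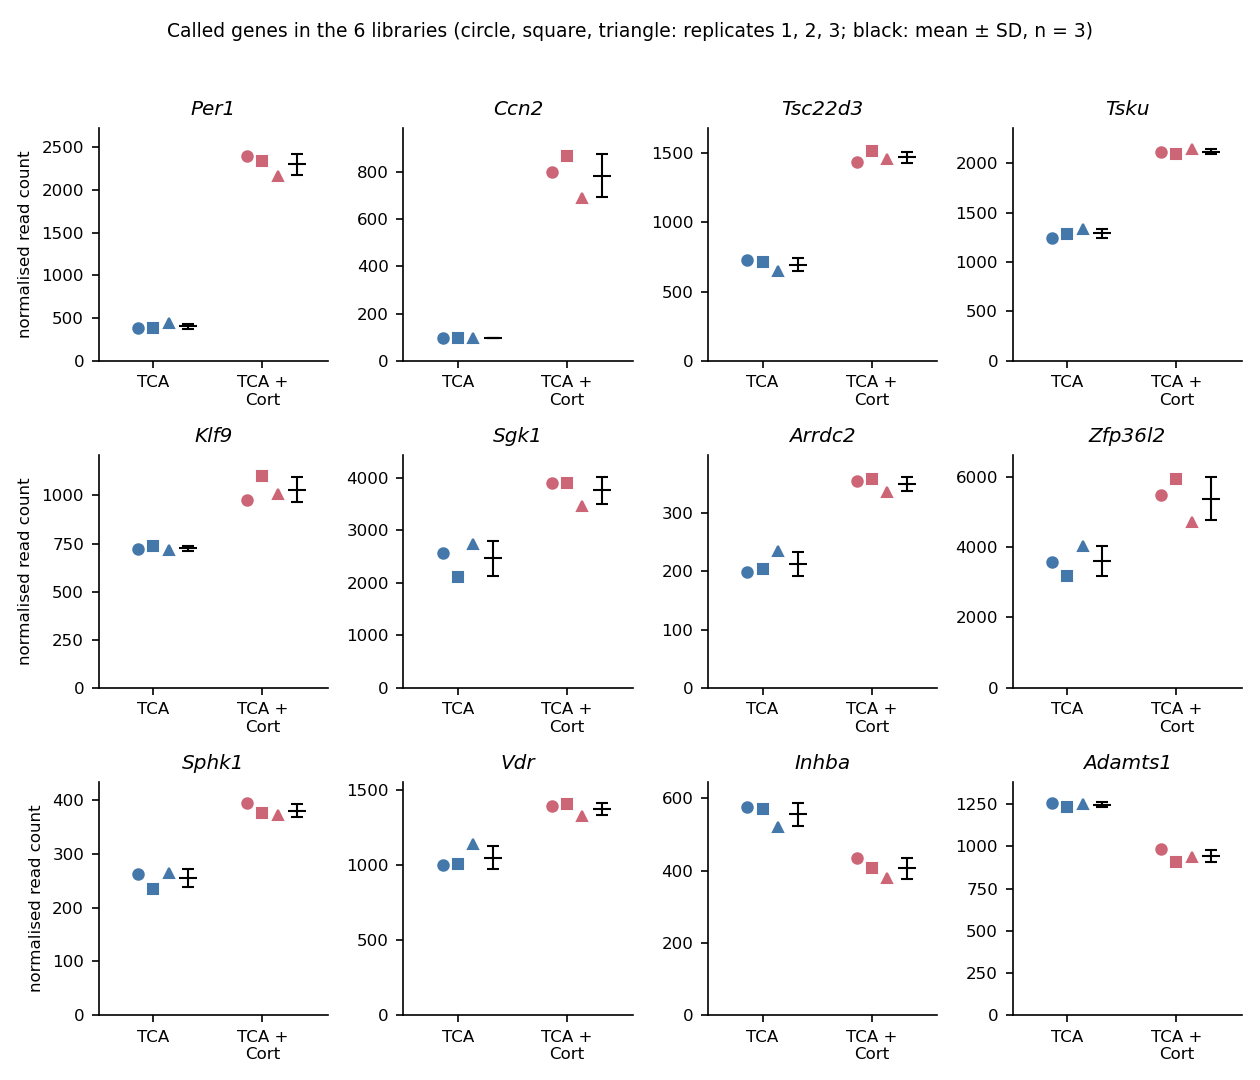
Normalised read counts of 12 called genes in the 3 TCA libraries (blue) and the 3 TCA plus Cort libraries (red), on linear axes from 0, with mean and SD in black (n = 3). In each of the 12 panels the libraries of the groups do not overlap. Per1 sits between 386 and 439 with TCA and between 2162 and 2398 with TCA plus Cort.

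Promoter windows were read from a RefSeq table of build GRCm38.p6, which matched 24 of the 35 rises and 17 of the 18 falls. The receptor's element is a palindrome of half-sites spaced by 3 bases, searched as AGAACA, any 3 bases and TGTTCT, and the half-site as AGAACA or TGTTCT, which covers both strands. A palindrome match contains a half-site match on either side of its spacer. The half-site was in 20.8% of the 24 rises' genes, in none of the 17 falls' genes and in 14.6% of 10040 tested genes with a window. The rises' 5 genes with it include Gm6093, which passed the filter through the TCA plus Cort group alone. Per window it was in 17.5% of 40 windows of the rises and 12.5% of 12715 windows of tested genes. A match describes letters and is no binding site.

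The palindrome was in 1 of these 12715 windows, that of Sgk1, and in 3 of all 32851 windows of the table. Sgk1 has 6 windows in the table, 3 of them with a half-site, and Tsc22d3 has 3, 1 of them with a half-site. The windows directly before the transcripts whose positions are given above hold no match in either gene, and those shown belong to other annotated starts. Matches were counted over whole windows, which also reach past the annotated start. Of the Sgk1 window with the palindrome the 250 bases before the start are shown. Of the Tsc22d3 window with a lone half-site, the part of its 250 bases before the start that lies outside annotated exons is shown. Both stretches are in lower case with each match in capitals. They are chr10:21993640-21993889, strand +, for Sgk1, and chrX:140600660-140600772, strand -, for Tsc22d3, in GRCm38.p6.
Sgk1: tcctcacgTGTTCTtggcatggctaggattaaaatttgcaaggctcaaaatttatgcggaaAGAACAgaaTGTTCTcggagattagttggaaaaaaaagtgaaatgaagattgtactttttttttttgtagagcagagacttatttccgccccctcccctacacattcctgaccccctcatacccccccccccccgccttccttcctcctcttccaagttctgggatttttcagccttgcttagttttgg
Tsc22d3: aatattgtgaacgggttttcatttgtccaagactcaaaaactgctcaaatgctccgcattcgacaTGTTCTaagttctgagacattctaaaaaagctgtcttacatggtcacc
No match was found in the windows of Per1, Tsku or Klf9, which says only that these letters are not in those stretches.

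Arrdc2, an arrestin-domain gene, went from 198, 203 and 235 to 354, 359 and 336, a 1.65-fold rise (adjusted p = 0.00528). Sphk1, which makes sphingosine 1-phosphate, went from 263, 235 and 265 to 394, 375 and 372, a 1.495-fold rise (adjusted p = 0.0108). Sik1, a salt-inducible kinase gene, rose 1.43-fold (adjusted p = 0.0189), and Tns2, a tensin of focal adhesions, 1.35-fold (adjusted p = 0.00558). Ampd3, an AMP deaminase gene, rose 1.296-fold (adjusted p = 0.0226) and the small GTPase gene Rhob 1.25-fold (adjusted p = 0.0336). Groups did not overlap for any of these 6, and TCA library 3 was the highest control in each.

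The acute-phase gene Orm3 stood at 30.3, 22.6 and 26.8 with TCA and at 72.1, 62.0 and 63.3 with TCA plus Cort (2.48-fold, adjusted p = 0.0121). Close paralogs make its count uncertain. Frat2, a GSK3-binding gene of Wnt signalling, went from 32.3, 39.0 and 37.8 to 71.2, 84.6 and 69.8 (2.07-fold, adjusted p = 0.0298). Gm6093, a predicted gene on chromosome 13, held 0, 2.05 and 2.98 normalised reads with TCA and 24.6, 20.3 and 36.7 with TCA plus Cort. Its TCA libraries lay at or under the floor of 3 counts, so no fold is given. It passed the filter of a mean of 10 through the TCA plus Cort group alone, so its place among the 53 is not read as support.

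The rises also included genes of transcription factors and their cofactors. Vdr, the vitamin D receptor gene, whose protein also binds a bile acid, went from 998, 1009 and 1138 to 1389, 1404 and 1324, a 1.31-fold rise (adjusted p = 0.0167). Cebpb, a C/EBP factor gene, rose 1.28-fold (adjusted p = 0.0336). Tead4, which encodes a DNA-binding partner of YAP, rose 1.30-fold, and Vgll4, which encodes a competitor of YAP for TEAD factors, 1.26-fold (adjusted p = 0.0336 for both). Foxo6 rose 1.36-fold (adjusted p = 0.0441) and Jade2, of a histone acetyltransferase complex, 1.24-fold (adjusted p = 0.0443).

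Among stress genes, Ddit4, whose protein restrains mTORC1, went from 8529, 7845 and 8154 to 10077, 9910 and 9370 (1.197-fold, adjusted p = 0.0336). Ddit3, which encodes CHOP, rose 1.17-fold (adjusted p = 0.0443), and the translation rescue gene Gtpbp2 1.18-fold (adjusted p = 0.0429). Trib3, at 8427 ± 172 and 9374 ± 249 (adjusted p = 0.109), and Chac1, at 4387 ± 199 and 4440 ± 290 (adjusted p = 0.903), were not called. Without TCA library 3, Trib3 was called higher (adjusted p = 0.00101) and Chac1 was not called (adjusted p = 0.474). The remaining rises were those of Shfl (1.57-fold), Fam214b (1.38-fold), Mmp11 (1.34-fold), Foxred2 (1.27-fold), Hist1h2ag (1.26-fold), Zfp862-ps (1.25-fold), Rpl34-ps1 (1.22-fold), Angptl4 (1.20-fold) and Emilin1 (1.19-fold). Angptl4 inhibits lipoprotein lipase, and Mmp11 and Emilin1 are genes of the extracellular matrix. Hist1h2ag, Zfp862-ps and Rpl34-ps1 have near copies and are uncertain.

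The 18 falls were smaller, with a median of 1.20-fold lower against a median of 1.35-fold for the rises. Wincr1, a long noncoding RNA, was at 166, 164 and 150 with TCA and at 117, 102 and 91.8 with TCA plus Cort, 1.54-fold lower (adjusted p = 0.0489). Inhba, which encodes the activin A subunit, went from 576, 572 and 519.7 to 435, 406 and 378, 1.37-fold lower (adjusted p = 0.0315). No treated library reached a control for either gene.

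Adamts1 (chromosome 16, 85793828 to 85803113), a secreted metalloproteinase gene, went from 1260, 1232 and 1253 to 982, 908 and 937, 1.32-fold lower (-0.28 ± 0.04, adjusted p = 0.00558). It was called in 5 of 6 leave-outs, more than any other fall, and lost its call without TCA plus Cort library 2 (adjusted p = 0.0897). Ptgs2, the cyclooxygenase 2 gene, went from 1078, 1056 and 1193 to 932, 814 and 819, 1.297-fold lower (adjusted p = 0.0368). Ankrd1, an ankyrin-repeat gene that YAP activates, was 1.23-fold lower (adjusted p = 0.0275).

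Ahnak, a giant scaffold protein gene, was 1.22-fold lower (adjusted p = 0.0315), at 69266 ± 1508 with TCA and 56791 ± 1592 with TCA plus Cort. The others were Tmed5 (1.26-fold lower), the nucleoporin gene Ranbp2 (1.21-fold), the chromatin remodeller gene Hells, the actin-binding Ccdc88a and 4932438A13Rik (1.204-fold each), the microtubule-associated Map1b (1.197-fold), the stress kinase gene Plk2 (1.19-fold), Naa15 of protein acetylation (1.19-fold), Atad2 (1.18-fold), the formin gene Fmn1 (1.18-fold), the splicing regulator gene Mbnl3 (1.18-fold) and Far1 (1.17-fold). The median transcript of the falls was 5860.5 nt long, against 2754 nt for the rises and 2850 nt for all tested genes. Without TCA library 3 the 1401 falls had a median of 3806 nt and the 1169 rises one of 2697 nt. The part of transcript length in the calls was not tested.

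Of the 35 rises 19, and of the 18 falls 16, were called in 1 of the 6 leave-outs, the one without that library. In all 53 genes the groups did not overlap, which held for 21.6% of tested genes (9.97% higher and 11.6% lower). Scaling to exon reads without Rn45s kept the total near 53 but moved the split, to 44 higher and 10 lower. The authors' deposited table lists 245 genes with an adjusted p below 0.05, of which 75 were higher and 170 lower. Of the 53 called genes, 36 were below 0.05 in the authors' deposited table and 16 were listed there with an adjusted p of 1, all with a mean of at most 877. Ccn2 is among those 16, with a p of 7.42e-116 and an adjusted p of 1 in the authors' deposited table. No gene with a mean under 936 had an adjusted p below 0.05 there, so the 245 and the 53 do not cover the same range of levels.

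**Figure D3:**
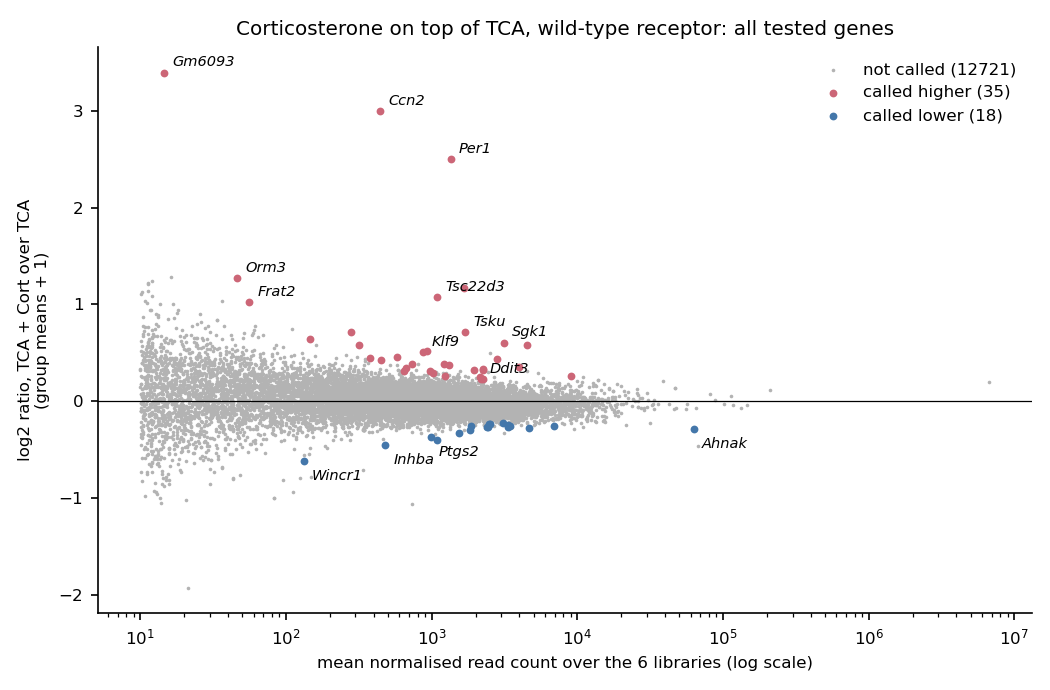
Log2 ratio of TCA plus Cort over TCA (group means plus 1) against the mean normalised read count (log axis) for the 12774 tested genes. The 35 genes called higher are red, the 18 called lower are blue and the others grey. Ccn2, Per1 and the low-count Gm6093 lie above all other called genes, and the falls stay close to the grey band.

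Groups of genes were described by their counts, beside all tested genes. Of 49 listed glucocorticoid-induced genes 41 were tested, 13 rose and none fell, with a median log2 ratio of 0.19 against 0.00 for all tested genes. The 13 are Per1, Tsc22d3, Sgk1, Klf9, Tsku, Ampd3, Sik1, Ddit4, Angptl4, Cebpb, Arrdc2, Orm3 and Ccn2. The list was put together with earlier results of these data known and is not independent of them. Without TCA library 3, 24 of the list rose and none fell, while 9.14% of all tested genes rose and 11% fell. With the Rn45s share as a covariate 17 rose and 1 fell, beside 1.24% and 1.79% of all tested genes.

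Several classic targets were not called. Fkbp5 (chromosome 17, 28398753 to 28486149), whose protein lowers the receptor's hormone binding, stood at 1784, 1790 and 1767 with TCA and at 1775, 1933 and 1947 with TCA plus Cort. The groups overlapped (adjusted p = 0.421). Dusp1, a phosphatase of MAP kinases, stood at 263, 219 and 307 and at 330, 344 and 276, also with overlap (adjusted p = 0.272). Errfi1, which restrains the EGF receptor, was at 478 ± 53.5 and 529.7 ± 12.3 (adjusted p = 0.369). Without TCA library 3, Dusp1 was called higher (adjusted p = 0.00778), beside 9.14% of all tested genes. Fkbp5 (adjusted p = 0.285) and Errfi1 (adjusted p = 0.118) were not called in that fit. Mknk2 (4030 and 5020 on average, adjusted p = 0.0598), Wee1 (1632 and 1948, adjusted p = 0.0600) and Bcl2l1 (1990 and 2328, adjusted p = 0.0797) did not reach the threshold although their groups did not overlap. Zbtb16, Mt2 and Lcn2 had means under 10 and were not tested, with Mt2 at 0 in all 6 libraries.

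Few genes of other pathways were called. Of 18 clock genes Per1 alone was called, and Per2 stood at 318 and 419 on average (adjusted p = 0.0801). Of 18 YAP targets 2 rose (Ccn2, Tead4) and 1 fell (Ankrd1). Of 31 genes of the integrated stress and unfolded protein responses 1 rose (Ddit3), and Ppp1r15a stood at 2172 and 2676 (adjusted p = 0.0649). Of 6 tested bile acid receptors and transporters 1 rose (Vdr), while Nr1h4 was at 67.4 and 65.9 (adjusted p = 0.953). Of 17 inflammatory genes 1 fell (Ptgs2).

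Of 19 insulin and mTOR genes 1 rose (Ddit4), of 15 lipid droplet genes and Pparg targets 1 rose (Angptl4), of 18 p53 targets 1 fell (Plk2), and of 19 TGF-beta and BMP response genes 1 fell (Inhba). Plin4 stood at 4139 ± 413 and 4624 ± 73.3 (adjusted p = 0.193), Pparg at 166 ± 12.7 and 162 ± 3.28 (adjusted p = 0.903), and the tryptase gene Tpsab1 at 1162 ± 450 and 988 ± 96.6 (adjusted p = 0.638). Without TCA library 3, Plin4 was called higher (adjusted p = 6.74e-05). Pparg (adjusted p = 0.94) and Tpsab1 (adjusted p = 0.227) were not called in that fit. None of 19 genes of the receptor and its chaperones, 19 receptor coregulators, 16 MAP kinase phosphatases and feedback genes, 21 immediate early genes, 22 NRF2 targets, 21 cholesterol synthesis genes or 25 mitosis genes was called. In these 7 lists 2 to 11 genes a list had groups that did not overlap on the lower side and 0 to 4 on the higher, beside 11.6% and 9.97% of all tested genes. The 11 are mitosis genes, with a median log2 ratio of -0.07. The 4 are immediate early genes, and 3 other genes of that list lay on the lower side. Of the lists that stand for library composition, 0 of 81 ribosomal protein genes, 1 of 65 replication histone genes and 0 of 148 small noncoding RNAs were called. Without TCA library 3, 12 ribosomal protein genes, 27 histone genes and 3 small noncoding RNAs rose, and 19, 1 and 21 fell. In that fit 10 mitosis genes and 8 receptor and chaperone genes fell and none rose. Of all tested genes 9.14% rose and 11% fell. With the Rn45s share as a covariate 17, 5 and 1 of the composition lists rose and 0, 4 and 2 fell. The shares of all tested genes were 1.24% and 1.79%.

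The rises were set beside the response to corticosterone without TCA, which comes from 6 other libraries. Of the 35 rises 19 (54.3%) were also called higher with corticosterone alone, against 0.918% of genes tested there (2.38% in either direction), and these are 16.2% of the 117 rises of that comparison. In 25 of the 35 the sign was the same. Of the 18 falls 2 (11.1%), Adamts1 and Plk2, were also called lower (background 1.47%), and 5 had the same sign. Klf9 was not called with corticosterone alone, at 553 and 641 on average (adjusted p = 0.121).

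In tetra with TCA, again from 6 other libraries, 25 of the 35 rises (71.4%) were called higher, against a background of 1.42%. They are 13.7% of 182 rises there, and 30 of 35 had the same sign. Of the 18 falls 2, Plk2 and Ankrd1, were called lower (background 0.288%) and 15 had the same sign. In all 3 comparisons 18 genes were called higher, among them Per1, Ccn2, Tsc22d3, Tsku, Sgk1, Ampd3, Arrdc2, Orm3, Sik1, Sphk1, Tead4, Tns2, Vdr and Zfp36l2, and Plk2 was called lower. Gm6093 is also counted among the 18 and among the shared rises of both comparisons, and is not read as support there.

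**Figure D4:**
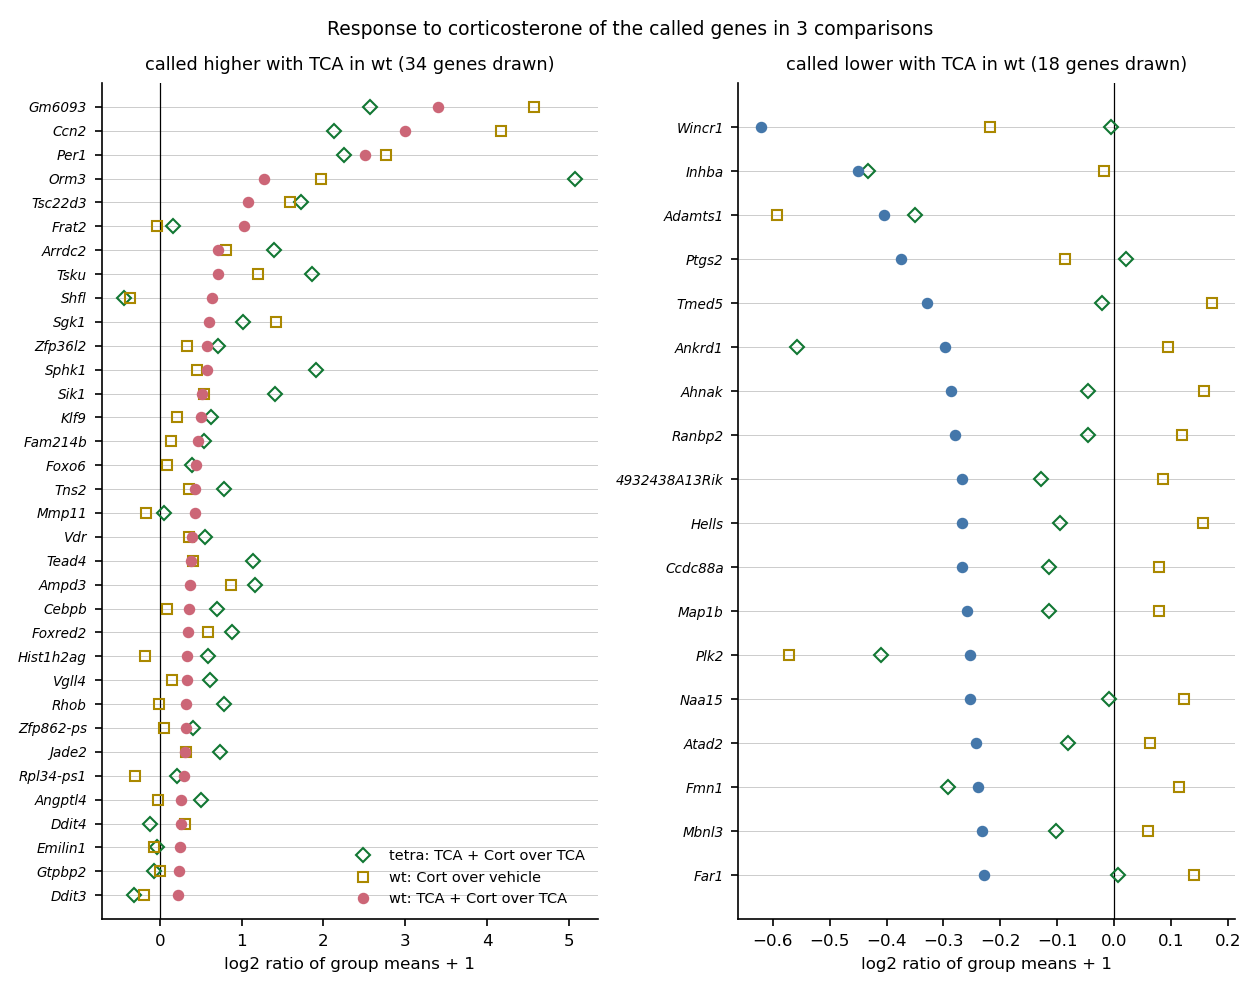
Log2 ratio of group means plus 1 for the called genes in 3 comparisons: TCA plus Cort over TCA in wt (filled circles), Cort over vehicle in wt (open squares) and TCA plus Cort over TCA in tetra (open diamonds). Of the 35 genes called higher 34 are drawn, and all 18 called lower. Orm3, Tsku, Sphk1, Sik1 and Arrdc2 lie further right in tetra than in wt, and most falls have a Cort over vehicle ratio near or above 0.

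The response with TCA was then tested against the response without TCA in wt, in 1 fit of 12 libraries, on log2 normalised counts with a pseudocount of 1. For Per1 no difference was called (-0.26 ± 0.11, adjusted p = 0.163). Its level on a joint scale of the 12 libraries was 413 ± 31.4 with vehicle, 2805 ± 266 with Cort, 384.5 ± 30.3 with TCA and 2181 ± 122 with TCA plus Cort. Vehicle and TCA did not differ beyond their spread, and TCA plus Cort lay below Cort in every library.

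Sgk1 rose less with TCA than without, by -0.80 ± 0.11 on the log2 scale (adjusted p = 0.000526), and the difference was called in 12 of 12 leave-outs. On the joint scale its level was 3617 ± 187 with vehicle, 9614 ± 586 with Cort, 2347 ± 322 with TCA and 3567 ± 248 with TCA plus Cort, so that the last and the vehicle level did not differ beyond their spread. Tsku likewise rose less, by -0.48 ± 0.06 (adjusted p = 0.000478), with levels of 2143 ± 54.2, 4883 ± 96.1, 1226 ± 50.1 and 2010 ± 17.4 in the same order. Ampd3 differed by -0.49 ± 0.08 (adjusted p = 0.00198), with levels of 1420 ± 43.8, 2581 ± 82.8, 1092 ± 86.4 and 1412 ± 54.5. In these 3 genes the level with TCA was under that with vehicle, and TCA plus Cort was at or under vehicle.

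Tsc22d3 rose less with TCA by -0.51 ± 0.09 (adjusted p = 0.00489), with levels of 520 ± 31.2, 1561 ± 116, 661 ± 38.9 and 1395 ± 37.5. Ccn2 rose less by -1.22 ± 0.22 (adjusted p = 0.00426), with levels of 47.9 ± 14.5, 876 ± 32.7, 92.2 ± 1.69 and 744 ± 87.4. On the deposited scales these 2 differences were not called (adjusted p = 0.0524 and adjusted p = 0.269), nor with the trend left out, at an adjusted p = 0.0675 for Tsc22d3 and an adjusted p = 0.0822 for Ccn2. Both genes started from a higher level with TCA than with vehicle. So did Fkbp5, whose response differed by -0.31 ± 0.07 (adjusted p = 0.016, but adjusted p = 0.0789 without a trend), with levels of 1313 ± 15.6, 1711 ± 51.3, 1692 ± 5.87 and 1788 ± 86.3. For Klf9 the difference was positive but not called (0.29 ± 0.08, adjusted p = 0.0592).

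**Figure D5:**
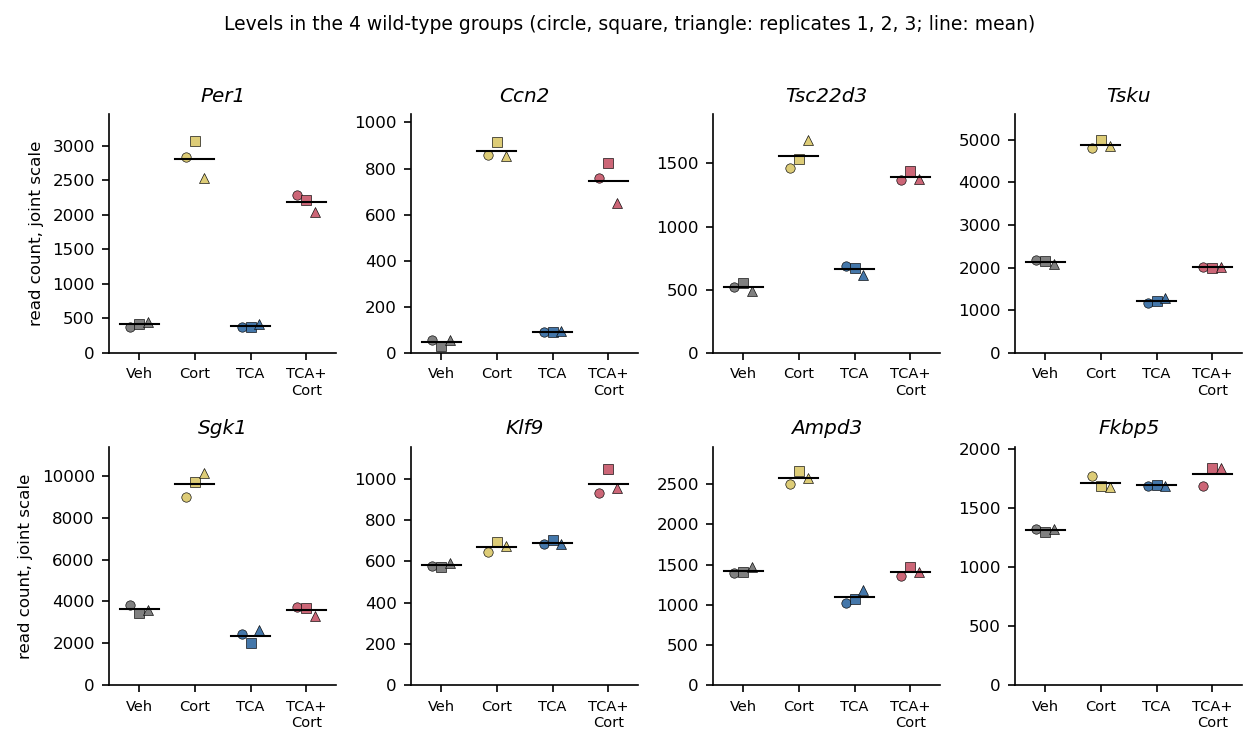
Read counts on a joint scale of 12 wt libraries, on linear axes from 0, in vehicle (grey), Cort (yellow), TCA (blue) and TCA plus Cort (red). Symbols are replicates 1, 2 and 3 and lines are means of 3. Sgk1, Tsku and Ampd3 with TCA plus Cort are near their vehicle level, while Per1, Ccn2 and Tsc22d3 stay several times or well above theirs.

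Other differences to the negative side were those of Itga10 (-1.31), Igip (-1.01), Spsb1 (-0.86) and Kbtbd8 (-0.85), each called in 12 of 12 leave-outs, and of the near-identical proliferin copies Prl2c4 (-0.95) and Prl2c3 (-0.93), called in 6 and 5. On the joint scale Itga10 stood at 28.3 with vehicle, 79.2 with Cort, 72.9 with TCA and 80.8 with TCA plus Cort. Prl2c4 stood at 1068, 1144, 52.4 and 29.5 in the same order. Neither proliferin copy was called with Cort alone, or with TCA plus Cort against TCA over the 6 libraries. Without TCA library 3 both were called lower there (adjusted p = 0.0325 for Prl2c4 and adjusted p = 0.0359 for Prl2c3). With no trend, the calls of Igip (adjusted p = 0.0638), Spsb1 (adjusted p = 0.0813) and both proliferin copies were lost. Spsb1, which targets signalling proteins for degradation, went from 179 to 357 on average with Cort alone (adjusted p = 1.5e-06) and stood at 250.4 and 278 with TCA (adjusted p = 0.61). The positive side was led by short noncoding RNAs that had fallen with Cort alone. Rpph1, the RNase P RNA, differed by 1.65 ± 0.13 (adjusted p = 4.22e-07), and Scarna10 (1.89), Scarna6 (1.84), Mir1949 (1.71), Rprl3 (1.58), Snora74a (1.37) and Rmrp (1.26) followed. None of them was called with TCA plus Cort against TCA over the 6 libraries. With TCA library 3 left out, Rmrp (adjusted p = 2.05e-08) and Snora74a (adjusted p = 8.33e-06) were called lower there. So were Rprl3 (adjusted p = 0.00372), Scarna6 (adjusted p = 0.0061) and Mir1949 (adjusted p = 0.0331). Rpph1 and Scarna10 were not, and 11% of all tested genes fell in that fit. For the difference between responses with no trend, Rpph1 and Scarna10 were still called. Scarna6 (adjusted p = 0.117), Mir1949 (adjusted p = 0.0813), Rprl3 (adjusted p = 0.0503), Rmrp (adjusted p = 0.0904) and Snora74a (adjusted p = 0.191) were not. Scarna6 and Snora74a also lost their calls with limma voom, and Snora74a was called in 4 of 12 leave-outs. The lists that stand for library composition lay on the same side: 23 of 81 ribosomal protein genes, 25 of 65 replication histone genes and 10 of 148 small noncoding RNAs differed to the positive side and none to the negative. With Cort alone 29, 35 and 19 of these lists had fallen. Their part in the difference was not tested.

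In all, 449 of 12801 genes differed between the responses with and without TCA (3.51%), 235 to the positive side (1.84%) and 214 to the negative (1.67%). Of 43 tested glucocorticoid-induced genes 9 lay on the negative and 2 on the positive side. Without an intensity trend the count was 46. Without TCA library 3 it was 1637, and without TCA libraries 1 and 2 it was 225 and 242. Without vehicle library 3 it was 160, and without TCA plus Cort libraries 1 and 2 it was 153 and 145. The 117 genes that rose with Cort alone had a median log2 ratio of 0.38 there, and the 115 of them tested with TCA had one of 0.12. For the 187 genes that fell with Cort alone it was -0.31, and for the 186 of them tested with TCA it was 0.07, with a ratio above 1 in 136. Of these falls 110 differed to the positive side, and of the rises 44 to the negative. Both sets were chosen by the first contrast, so this is a description and not a test.

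The response with TCA in wt was also tested against that in tetra. Fkbp5 rose less in wt, by -1.02 ± 0.08 (adjusted p = 2.93e-07), with means of 1780 and 1885 in wt and of 1663 and 3580 in tetra. Dusp1 did so by -1.17 ± 0.17 (adjusted p = 0.00075), Errfi1 by -1.71 ± 0.12 (adjusted p = 1.04e-07), Tsku by -1.14 ± 0.09 (adjusted p = 5.11e-07) and Orm3 by -3.80 ± 0.19 (adjusted p = 9.44e-10). Each of these 5 differences was called in 12 of 12 leave-outs. Sphk1 (-1.32), Sik1 (-0.91), Tead4 (-0.78), Ampd3 (-0.79) and Foxred2 (-0.53) also rose less in wt. The Tead4 difference was called in 6 of 12 leave-outs and lost with no trend (adjusted p = 0.192).

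For Per1 (0.25 ± 0.11, adjusted p = 0.596), Ccn2 (0.79 ± 0.26, adjusted p = 0.341), Sgk1 (-0.42 ± 0.17, adjusted p = 0.542), Klf9 (-0.13 ± 0.09, adjusted p = 0.826) and Tsc22d3 (-0.64 ± 0.15, adjusted p = 0.0532) no difference was called. Further differences towards tetra were those of Nipal1 (-2.26), Spsb1 (-2.24), the vasodilator peptide gene Adm (-1.74), the interleukin 6 receptor gene Il6ra (-1.66), Arl4d (-1.66) and Map7d2 (-1.55). Lcn2, the lipocalin 2 gene, held 2.64, 1.19 and 5.51 normalised reads with TCA plus Cort in wt, near the floor of 3 counts, and 71.1 on average in tetra. It passed the filter through that tetra group alone, so no difference is read from its fit.

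Towards wt the list is shorter: Syn1 (1.32), Shfl (1.05), Adamts6 (0.84), the aryl hydrocarbon receptor gene Ahr (0.67), Gas1 (0.64), Ier3 (0.61), Mylip (0.60), Artn (0.59) and Ddit4 (0.38). Of these, Adamts6 was called in 12 of 12 leave-outs and Syn1, Shfl, Ahr, Gas1, Ier3, Mylip, Artn and Ddit4 in 2 to 7. With no trend Ahr, Gas1, Ier3, Mylip and Ddit4 lost their calls. In tetra with TCA, Adamts6 (279 to 181), Ahr (280 to 165), Ier3 (387 to 245), Mylip (719 to 495) and Gas1 (1439 to 1086) were called lower with Cort. None of them was called in wt with TCA over the 6 libraries. Shfl and Ddit4 were called higher in wt and not called in tetra, and Syn1 and Artn were called in neither. In all, 84 of 12809 genes differed (0.656%), 15 towards wt (0.117%) and 69 towards tetra (0.539%), and of 45 tested glucocorticoid-induced genes 1 and 16. That list had 32 rises among 45 tested genes in tetra with a median log2 ratio of 0.79, 22 among 44 with Cort alone with a median of 0.27, and 13 among 41 with TCA in wt.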

How the data were processed

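The submitters' processing notes name cutadapt, STAR 2.7.0f, HOMER 4.10.4 and the build mm10, without saying which did what. Per the file headers, HOMER summed reads over the exons of RefSeq transcripts, condensed them per gene, and gave variance-stabilised log2 values, computed by the authors for each table of 6 libraries on its own. The headers name no strand setting, so overlapping or antisense genes may share reads. The authors' log2 fold change, p-value and adjusted p-value were copied from the deposited table and are used only where it is named.

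Each deposited log2 scale was inverted to read counts (of those under 1000, 100% were whole to within 0.01) and scaled by the factor it implies, giving normalised counts. A floor of 3 counts equals 2.64 to 3.57 normalised reads in the 6 libraries; without molecular identifiers it covers counting error only. Libraries of 1 group differed beyond that error, with a chi-square per gene of 2.39 to 33.7. The test was limma 3.58.1 (R 4.3.3) on the deposited values, its prior variance following intensity (the trend), for genes whose mean was 10 or more; a gene is called where the adjusted p is below 0.05. Differences between responses were fitted on log2 of normalised counts with a pseudocount of 1, over 12 libraries from tables that share none. The fits were run on simulated counts in which no library was set apart. That run does not cover a library such as TCA library 3. Alternatives were other scalings, pseudocounts and filters, no trend, limma voom, a replicate block and leaving out each library. The labels name no pairing by replicate number, and the main fit used none. Figures used Python 3.11.15 and matplotlib 3.10.9, and promoter windows came from RefSeq (GRCm38.p6).

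The members and the 25 gene lists were chosen with earlier results of these data known. Named genes are the 20 rises and 20 falls of largest fold (called, mean of 50 or more, groups not overlapping), the 8 largest differences per direction, up to 6 genes per list and a panel of 19. Other called genes were named after their values were seen. A single gene selected by this rule is not reported here.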

Additional observations from a re-analysis of the deposited data

Results flagged for a closer look

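In each gene below the test of the difference between 2 responses to corticosterone was past its threshold (limma, adjusted p below 0.05); values are log2 differences. For the response with TCA minus that without TCA in wt, they were -1.31 for Itga10, -1.22 for Ccn2, -1.01 for Igip, -0.95 for Prl2c4, -0.93 for Prl2c3, -0.86 for Spsb1, -0.85 for Kbtbd8, -0.80 for Sgk1, -0.51 for Tsc22d3, -0.36 for Chac1 and -0.31 for Fkbp5. To the positive side they were 1.89 for Scarna10, 1.84 for Scarna6, 1.71 for Mir1949, 1.65 for Rpph1, 1.58 for Rprl3, 1.37 for Snora74a, 1.26 for Rmrp and 1.06 for Frat2. The Frat2 difference was called in 6 of 12 leave-outs. It was lost with no trend (adjusted p = 0.0638) and with limma voom (adjusted p = 0.0537). The Chac1 difference was lost with no trend (adjusted p = 0.0975).

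For the response with TCA in wt minus that in tetra, they were -3.80 for Orm3, -2.26 for Nipal1, -2.24 for Spsb1, -1.74 for Adm, -1.71 for Errfi1, -1.66 for Il6ra, -1.66 for Arl4d, -1.55 for Map7d2, -1.17 for Dusp1, -1.02 for Fkbp5 and -0.61 for Plin4. To the positive side they were 1.32 for Syn1, 1.05 for Shfl, 0.84 for Adamts6, 0.67 for Ahr, 0.64 for Gas1, 0.61 for Ier3, 0.60 for Mylip, 0.59 for Artn and 0.38 for Ddit4. The Plin4 difference was lost with no trend (adjusted p = 0.0535). The fitted value for Lcn2 was -3.87, but it rests on wt libraries at or near the floor of 3 counts and depends on the pseudocount. That gene entered the test through tetra with TCA plus Cort alone, was called in 3 of 12 leave-outs, and was not called with no trend (adjusted p = 0.0519).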

How the results depend on the processing

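No difference that was past the threshold changed sign. Some of those that were not did so on top of TCA with the Rn45s share as a covariate. Among them, Chac1 went from 0.01 to -0.05, Itga10 from 0.04 to -0.03, Il6ra from 0.03 to -0.05 and Spsb1 from 0.06 to -0.007. Scarna6 went from -0.096 to 0.004 and Mir1949 from -0.084 to 0.002. For corticosterone on top of TCA in wt 53 genes were called. The count was 15 with limma voom, 388 with the Rn45s share as a covariate (chosen after seeing the data) and 49 to 79 with other pseudocounts, filters or scaling, no trend, or 1 fit of 12 libraries. Leaving out 1 library gave 6 to 2570. For the difference between the responses with and without TCA, 449 genes were called, against 299 with limma voom, 281 with no filter, 46 with no trend and 145 to 1637 with 1 library left out. For the difference between wt and tetra, 84 were called, against 59 to 102 under the alternatives and 53 to 119 with 1 library left out (54 and 53 without TCA plus Cort libraries 2 and 3 of wt). The causes of these shifts were not tested.

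With the replicate block the 3 counts were 9, 238 and 83. Deviations of same-numbered libraries from their group means correlated at -0.13, -0.19 and -0.43, and no library correlated best with its own number. With 3 libraries a group and TCA library 3 apart, these values cannot show whether same-numbered libraries were prepared together. The labels do not say so either. Where a left-out library leaves 2 in a group, the spread is pooled over the fit. Depth limits Gm6093 with TCA and Lcn2 in both wt groups, which lay near the floor of 3 counts.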
